A study of Pan troglodytes with 6 samples.

Results

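The genes described here are the 143 whose symbol in the platform annotation begins as a CXC, CC or CX3C chemokine or its receptor, an interleukin or interleukin receptor, a TNF superfamily ligand or receptor, a Toll-like receptor, an IRF, a STAT or a SOCS. They were chosen by symbol alone from 12584 named genes on 15143 measured features. The symbol pattern also takes in IRF2BP1, IRF2BP2 and IRF2BPL, which are partners of IRF2 or related to them and not IRFs themselves. The symbol IL27 had 2 features, of which the one with the higher mean was kept. A further 25 features named a family gene together with another gene, among them those of STAT5A, STAT5B and TLR9, and were not used.

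Chemokines, interleukins and tumour necrosis factor (TNF) family proteins carry signals between immune cells, blood vessels and the tissue around them. Most act on receptors at the cell surface. Chemokine receptors couple to G proteins and guide migrating cells, many interleukin receptors activate JAK kinases and STAT transcription factors, and TNF receptors and Toll-like receptors act largely through adaptor proteins and NF-kappaB. SOCS proteins are induced by cytokine signals and damp JAK and STAT signalling, and interferon regulatory factors (IRFs) are transcription factors downstream of Toll-like and interferon receptors. In liver these systems are known from Kupffer cells, sinusoidal endothelium and hepatocytes, which answer cytokines by making acute phase proteins. In cerebellum they are known from microglia, and some family members have roles in neurons.

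RNA of cerebellum and of liver from chimpanzees (Pan troglodytes) was measured on 3 arrays per tissue, with an Affymetrix exon array whose probes were designed on human sequence. The labels give the animal of replicate 1 as female and 27 years old, that of replicate 2 as male and 37 years old and that of replicate 3 as male and 30 years old in either tissue, and name no treatment. The labels call the arrays biological replicates and do not say whether both tissues came from the same animals, so p-values cover the spread between these arrays. The fit does not pair the tissues, and the calls that changed with the replicate number as a block are listed at the end. The values are intensities on a linear scale that were quantile normalized before deposit, with a median of 96.3 on every array.

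The arrays carried the defining markers of their labelled tissues. All 14 measured granule and Purkinje cell markers were higher in cerebellum, with summed intensities of 17862 to 21669 in cerebellum against 577 to 645 in liver. All 14 hepatocyte markers were higher in liver, with sums of 327 to 580.3 in cerebellum against 27552 to 39556 in liver. Of 11 markers of astrocytes and oligodendrocytes, 9 were higher in cerebellum and 0 in liver. These lists were known to part the tissues in earlier work on these data, so they check the labels and nothing more. Where chimpanzee sequence differs from the human probe it can shift the level of one gene against another, so each gene is compared only with itself across tissues.

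More of the 143 genes were higher in liver than in cerebellum. In cerebellum 12 were higher, among them the synaptic adhesion gene IL1RAPL1, the signalling inhibitor SOCS5 and the interleukin IL17D, and in liver 59 were higher, among them IL32, IL1R1, CCL16, IL13RA1 and CXCL12 (limma on log2 intensity with a pseudocount of 16.8, Benjamini-Hochberg adjusted p under 0.05 over all features). These are 8.39% and 41.3% of the members. Over all features 26.7% were called higher in cerebellum and 23.9% higher in liver. The counts of single families and gene lists below are to be read beside these shares. The median log2 difference, cerebellum minus liver as everywhere below, was -0.57 over the members and 0.04 over all features. The 3 cerebellum values lay entirely above the 3 liver values for 12 members, and the 3 liver values above those of cerebellum for 68, where 31.0% and 28.5% of all features did so. With a difference of at least 1 on the log2 scale, 7 members passed toward cerebellum and 46 toward liver, against 17.2% and 15.8% of all features. The other 72 members did not pass the threshold. In 77 of the 143 the mean was under the array median in both tissues, beside 5349 of all 15143 features, so the members were dimmer. The pseudocount compresses differences of such dim genes.

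**Figure D1:**
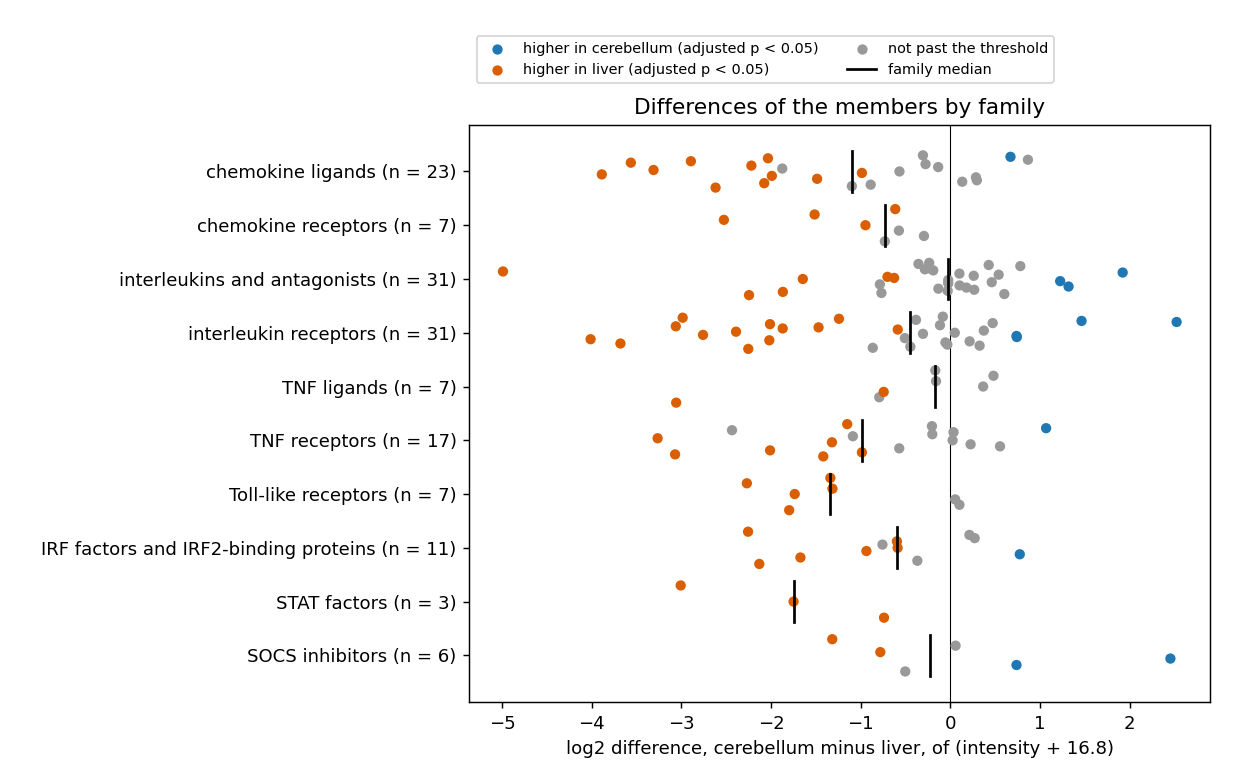
Log2 difference of each of the 143 genes, cerebellum minus liver, by family, with the pseudocount of 16.8 in the log. Blue points are the 12 genes higher in cerebellum, orange points the 59 higher in liver and grey points the 72 not past the threshold, and each black line is a family's median. Orange points appear in all 10 families and blue points in 6.

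The scaling between the tissues moves both counts. With arrays aligned on 31 ribosomal protein and proteasome genes the median difference of all features became 0.47, and 25 members were higher in cerebellum and 46 in liver. The share of called members that were higher in cerebellum was then 35.2% in place of 16.9%, beside 73.1% in place of 52.8% for all features. In the reported fit 10 of the 31 genes used for it were higher in liver and 2 in cerebellum, with a median log2 difference of -0.38. The alignment takes these genes as equal between the tissues, which was not tested, and adds 0.43 to every difference. Under it 14 members lost their call, namely CCL28, CCR4, CCR6, IL10, IL15RA, IL1A, IRF2BP2, IRF3, IRF5, SOCS1, SOCS2, STAT4, TNFRSF17 and TNFSF13B, and 14 gained one. Of the uncalled genes described below, IL17C, IL17RD, TNFSF18 and IRF2BPL were then called higher in cerebellum and TNFRSF12A higher in liver (limma, adjusted p from 0.0083 for IL17RD to 0.0477 for TNFRSF12A). The count toward cerebellum was 7 without cerebellum replicate 1, 6 without cerebellum replicate 3 and 7 without liver replicate 2. Over all features the shares toward cerebellum in these fits were 22.5%, 21.7% and 23.2%, in place of 26.7%.

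Among markers of immune and vascular cells, as among the members, more were higher in liver than in cerebellum. Of 16 measured markers of macrophages, Kupffer cells and microglia, 13 were higher in liver and 0 in cerebellum, with summed intensities of 689 to 1139 in cerebellum against 6295 to 11099 in liver. Of 22 plasma cell and lymphocyte markers, 14 were higher in liver and 0 in cerebellum. The sums of this list were 729 to 934 in cerebellum against 2440.5 to 3276 in liver. JCHAIN, at 734, 624 and 730, and CD4, at 412, 330 and 662, were its brightest genes in liver. CD3D, CD3G, CD7, CD79A, CD79B, BLK, MZB1 and ZAP70 did not pass, at log2 differences from -0.54 for CD7 to 0.08 for CD79A. Of 17 endothelial markers, 12 were higher in liver and 0 in cerebellum. The sums of this list were 841 to 935 in cerebellum against 3233 to 3724 in liver. Its largest differences were -3.60 for FCN3 and -3.58 for STAB2. VWF, FLT1, CLDN5, CLEC14A and ROBO4 did not pass, at log2 differences from -0.68 for VWF to 0.37 for CLEC14A. Of 11 markers of smooth muscle, stellate cells and fibroblasts, 7 were higher in liver and 1 in cerebellum, with sums of 914 to 1818 in cerebellum against 1856 to 4669 in liver. Of 10 markers of neutrophils and red cells, 5 were higher in liver and 0 in cerebellum, with sums of 368 to 406 in cerebellum against 696 to 1009 in liver. The granzyme gene GZMK lay below 0 on 1 cerebellum array, and no other marker of these 5 lists was at or below 0 on any array. Of the macrophage markers 3 did not pass, namely TMEM119, P2RY12, known from microglia, and CLEC4F, known from Kupffer cells in mouse. The log2 difference was -0.41 for TMEM119 (limma, adjusted p = 0.0714). For P2RY12 and CLEC4F it lay toward cerebellum, at 0.59 and 1.25 (limma, adjusted p = 0.278 and 0.056). In tissue RNA, fewer cells of a type and less RNA per cell cannot be told apart. The part of these cells in the differences of the members was not tested.

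Among the chemokine ligands, 11 of 23 were higher in liver and 1 in cerebellum, with a median log2 difference of -1.10. CCL16, a CC chemokine known for its expression in liver, had intensities of 23.8, 34.1 and 31.4 in cerebellum, against 656, 772 and 592 in liver. CXCL12, the ligand of CXCR4 that holds blood stem cells and lymphocytes in their niches, had 63.2, 74.7 and 53.3 in cerebellum, against 767, 1006 and 1039.9 in liver. All 3 liver arrays lay far above all 3 cerebellum arrays for both genes, and the log2 differences were -3.89 and -3.56 with standard errors of 0.18 and 0.19 (limma, adjusted p = 8.70e-07 and 1.94e-06). CXCL16, a membrane-anchored chemokine that also acts as a scavenger receptor, was at 12.02, 34.9 and 9.55 in cerebellum, against 229.8, 369 and 385 in liver. CXCL14, a chemokine of resting epithelia, was at 17.3, 41.2 and 12.7 in cerebellum, against 258, 290.4 and 267 in liver. In both of these genes cerebellum replicate 2 was the highest of its tissue, and the tissues did not overlap. The log2 differences were -3.31 for CXCL16 and -2.89 for CXCL14 (limma, adjusted p = 3.54e-05 and 2.99e-05).

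CXCL9, CXCL10, CCL5 and CCL21 were also higher in liver. CXCL9, which interferon gamma induces and which binds CXCR3, had 19.1, 14.4 and 18.3 in cerebellum, against 94.8, 146 and 144 in liver. CXCL10, another such ligand of CXCR3, had 15.01, 26.01 and 18.7 in cerebellum, against 211, 83.4 and 474 in liver, with an uneven liver group. Their log2 differences were -2.08 and -2.62 (limma, adjusted p = 4.84e-05 and 0.00224). CCL5, an attractant of T cells and monocytes, had 31.6, 29.95 and 52.3 in cerebellum, against 134, 183 and 338 in liver, and the CCR7 ligand CCL21 had 13.4, 15.6 and 20.2 in cerebellum, against 91.4, 105 and 157 in liver. Both genes were without overlap, at log2 differences of -2.03 and -1.99 (limma, adjusted p = 8.26e-04 and 9.73e-05). Of the ligands named after their values were seen, CCL2, which attracts monocytes through CCR2, was at 15.98, 25.99 and 18.3 in cerebellum, against 77.2, 102 and 427 in liver, and CCL18, a product of macrophages, was at 18.9, 29.3 and 19.2 in cerebellum, against 90.5, 58.4 and 145 in liver. Their log2 differences were -2.22 and -1.49 (limma, adjusted p = 0.00662 and 0.00234), and liver replicate 3 was the highest array in both.

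The chemokine that was higher in cerebellum was CCL22, a ligand of CCR4. Its intensities were 25.3, 30.3 and 29.1 in cerebellum, against 20.6, 9.24 and 6.45 in liver. The groups did not overlap, but all values were low and the tissues differed by 0.67 ± 0.21 in log2 (SE, n = 3 per tissue; limma, adjusted p = 0.0277). The call did not hold when cerebellum replicate 1, 2 or 3 or liver replicate 2 or 3 was left out (limma, adjusted p from 0.0577 to 0.0873). CXCL5 and CXCL6, neutrophil attractants, did not pass the threshold. CXCL5 was at 176, 130.5 and 229 in cerebellum, against 178, 122 and 123.4 in liver, with overlapping tissues. CXCL6 was at 14.1, 25.8 and 33.8 in cerebellum, against 51.9, 49.7 and 702 in liver, so that 1 liver array stood apart from the other 5. Its log2 difference of -1.88 (limma, adjusted p = 0.0869) was -0.74 without liver replicate 3, where it passed (limma, adjusted p = 0.0332). CX3CL1, the membrane-bound chemokine known from neurons and named after its values were seen, had 26.3, 75.3 and 28.2 in cerebellum, against 56.2, 111 and 105 in liver. The values of both tissues overlapped, with a difference of -0.89 ± 0.34 in log2 (SE, n = 3 per tissue; limma, adjusted p = 0.0572). With the replicate number as a block CXCL6 and CX3CL1 were both called.

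Of 7 chemokine receptors, 4 were higher in liver and 0 in cerebellum, and 6 had all liver values above all cerebellum values. CCR1, a receptor of CCL5 on monocytes, had 7.33, 9.14 and 6.71 in cerebellum, against 97.8, 103 and 187 in liver. CXCR4, the receptor of CXCL12, had 21.7, 43.3 and 16.8 in cerebellum, against 79.8, 88.1 and 162 in liver. The liver arrays lay above the cerebellum arrays in both, by log2 differences of -2.53 and -1.51 (limma, adjusted p = 4.48e-05 and 0.00312). CCR4 and CCR6, receptors of T cell subsets, had means under the array median in both tissues, at 6.66, 11.8 and 7.37 in cerebellum, against 38.3, 21.6 and 38.2 in liver for CCR4 and 18.5, 28.4 and 15.5 in cerebellum, against 42.6, 39.2 and 38.8 in liver for CCR6. Their log2 differences were -0.95 and -0.62 (limma, adjusted p = 0.00458 and 0.0216). Neither call held after alignment to general genes (limma, adjusted p = 0.0961 and 0.52). The call of CCR6 also did not hold when cerebellum replicate 1 or 3 or liver replicate 2 was left out (limma, adjusted p from 0.0523 to 0.0995). The lymphocyte receptors CXCR3 and CCR7 did not pass, with log2 differences of -0.73 and -0.57 (limma, adjusted p = 0.0544 and 0.0792), and CXCR5 lay below 0 on all 3 cerebellum arrays.

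**Figure D2:**
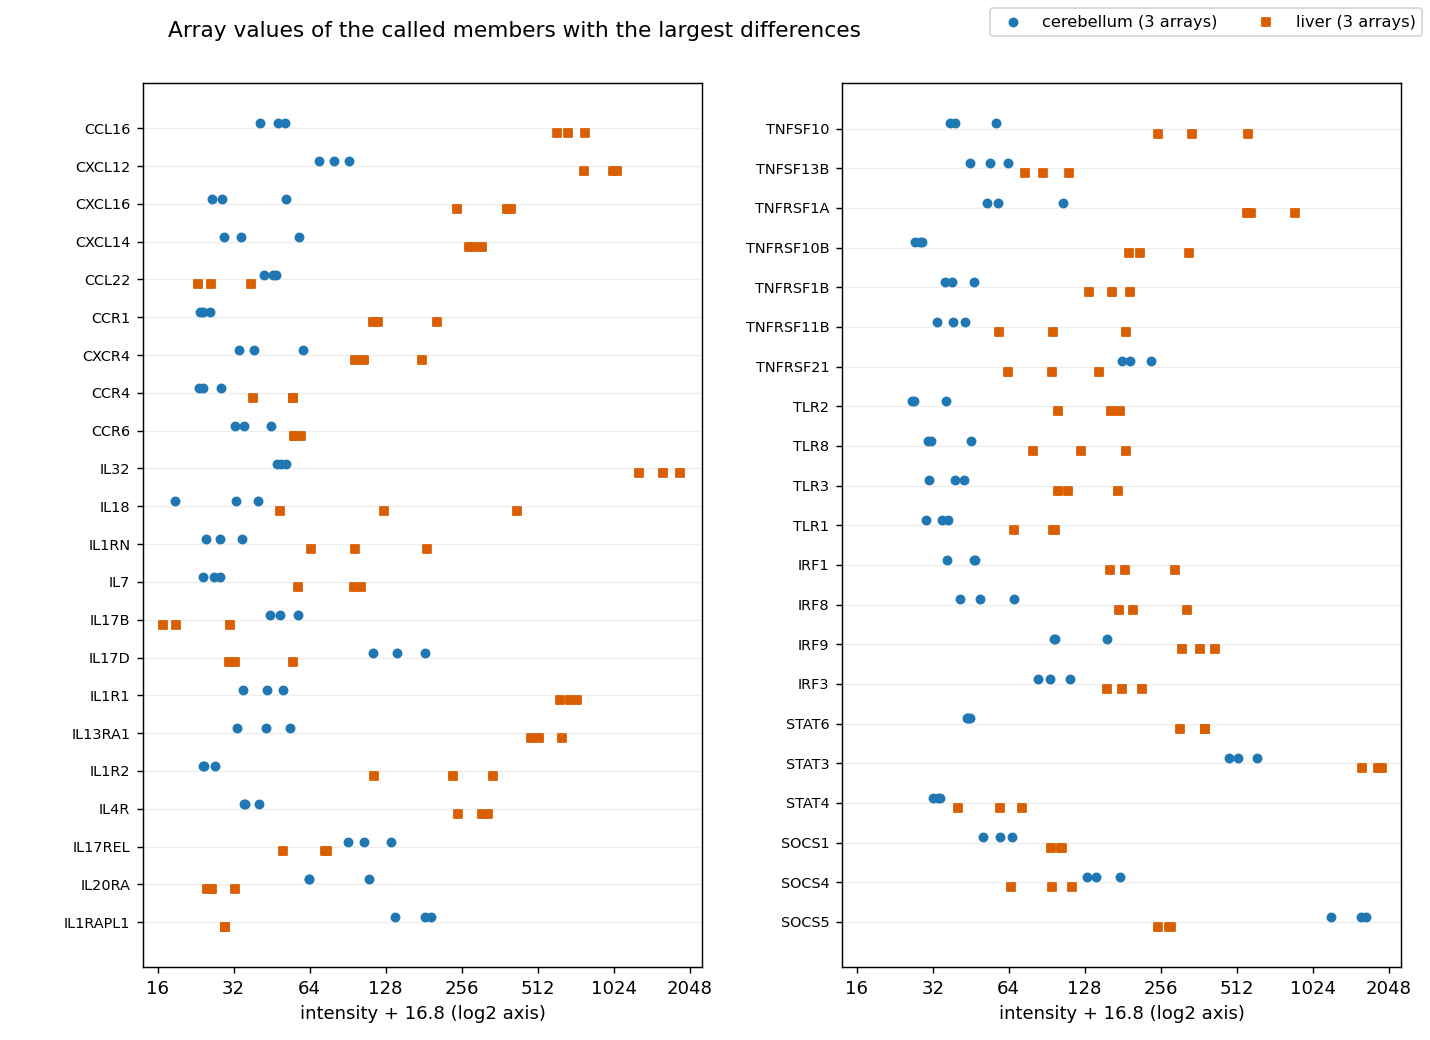
Intensity plus 16.8, on a log2 axis, on each array for the 43 called genes with the largest differences in their families. Blue circles are the 3 cerebellum arrays and orange squares the 3 liver arrays, and values below 0 are drawn at 0 plus the pseudocount. Genes with overlap were left out, so the tissues are separate in every row by choice. Cerebellum lies above liver for CCL22, IL17B, IL17D, IL17REL, IL20RA, IL1RAPL1, TNFRSF21, SOCS4 and SOCS5.

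Most interleukins were dim and did not pass the threshold. Of 31 interleukins and their antagonists, 3 were higher in cerebellum and 6 in liver, or 9.68% and 19.4%, beside 26.7% and 23.9% of all features. The median log2 difference was -0.03, or 0.40 after alignment to general genes. In 24 of the 31 the mean was under the array median in both tissues. IL32, a cytokine of lymphocytes and epithelia that induces other inflammatory cytokines, had 30.9, 32.7 and 34.6 in cerebellum, against 1271, 1589 and 1864 in liver. Its log2 difference of -4.99 with a standard error of 0.19 was the largest of all members on this scale (limma, adjusted p = 3.20e-07). IL7, a growth factor of lymphocytes, had 9.98, 7.45 and 11.6 in cerebellum, against 40.6, 85.4 and 79.3 in liver. IL1RN, the antagonist that blocks IL1R1, had 8.03, 11.6 and 17.7 in cerebellum, against 80.2, 170.3 and 48.3 in liver. Neither gene overlapped between the tissues, with log2 differences of -1.65 and -1.87 (limma, adjusted p = 5.78e-04 and 0.00246).

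IL18, an inducer of interferon gamma made by macrophages, varied widely among the livers. Its intensities were 15.9, 23.3 and 2.03 in cerebellum, against 32.3, 109 and 409 in liver. No cerebellum reached the lowest liver, and the tissues differed by -2.25 ± 0.68 in log2 (SE, n = 3 per tissue; limma, adjusted p = 0.0235). Without liver replicate 3 it was -1.43 (limma, adjusted p = 0.0315), and the call did not hold when cerebellum replicate 1 or 3 or liver replicate 2 was left out (limma, adjusted p from 0.0531 to 0.0837). IL1A, the first of the agonists of IL1R1, was at 11.5, 16.6 and 14.1 in cerebellum, against 31.8, 36.2 and 24.97 in liver, a log2 difference of -0.63 (limma, adjusted p = 0.0157). IL1B, the other agonist, was at 18.4, 27.6 and 14.8 in cerebellum, against 30.5, 30.2 and 92.9 in liver and did not pass (a difference of -0.77 in log2; limma, adjusted p = 0.0877). The call of IL1A did not hold when cerebellum replicate 1 or 3 or liver replicate 2 was left out (limma, adjusted p from 0.056 to 0.0649), and after alignment to general genes (limma, adjusted p = 0.488). IL10, an anti-inflammatory cytokine, was higher in liver by a log2 difference of -0.70 (limma, adjusted p = 0.0463), and this call did not hold when cerebellum replicate 1, 2 or 3 or liver replicate 1 or 3 was left out (limma, adjusted p from 0.0606 to 0.157), nor with the pseudocount at the 20th percentile (limma, adjusted p = 0.0653). The call of IL10 was also lost after alignment to general genes and with the replicate number as a block. IL6, the main inducer of hepatic acute phase genes, was at 30.6, 31.6 and 42.4 in cerebellum, against 60.4, 7.19 and 11.4 in liver and overlapped between tissues (a difference of 0.46 in log2; limma, adjusted p = 0.372).

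The 3 interleukins that were higher in cerebellum were IL17D, IL17B and IL12B. IL17D, a distant member of the interleukin-17 family, had 97.6, 166 and 126 in cerebellum, against 38.4, 13.99 and 15.6 in liver. IL17B, of the same family, had 31.9, 27.96 and 40.6 in cerebellum, against 14.2, 2.13 and -4.35 in liver. All 3 cerebellum arrays lay above all 3 livers for both genes, at log2 differences of 1.92 and 1.22 with standard errors of 0.28 and 0.25 (limma, adjusted p = 5.07e-04 and 0.0037). IL12B, the subunit that IL-12 and IL-23 share, was at 122, 36.3 and 118 in cerebellum, against 39.1, 10.9 and 24.9 in liver, with cerebellum replicate 2 below the highest liver. Its log2 difference of 1.32 (limma, adjusted p = 0.025) was not called when cerebellum replicate 1 or 3 or liver replicate 2 was left out (limma, adjusted p from 0.0917 to 0.0953). IL17C and IL17F, further members of the interleukin-17 family chosen after their values were seen, did not pass, at log2 differences of 0.43 and -0.28 (limma, adjusted p = 0.203 and 0.245). IL11 and IL34, the second a ligand of CSF1R that microglia depend on in mouse, did not pass either. IL34 was at 112, 129.8 and 142 in cerebellum, against 149.7, 121 and 73.7 in liver and overlapped, with a difference of 0.18 ± 0.24 in log2 (SE; limma, adjusted p = 0.57).

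On this scale interleukin receptors included both the largest difference toward liver among receptors and the largest difference toward cerebellum among all members. Of 31, 13 were higher in liver and 4 in cerebellum, with a median of -0.45, or -0.02 after alignment to general genes. IL1R1, the signalling receptor of interleukin-1, had 26.6, 33.3 and 18 in cerebellum, against 717, 609.6 and 673 in liver. IL1R2, a decoy that binds interleukin-1 without signalling, had 7.76, 7.36 and 10.2 in cerebellum, against 220.2, 325 and 97.9 in liver. IL1RAP, the accessory chain that IL1R1 needs for signalling, had 50.4, 37.8 and 56.3 in cerebellum, against 439, 359 and 153 in liver. The 3 genes of this receptor system were thus all higher in liver without overlap, at log2 differences of -4.01, -3.06 and -2.25 (limma, adjusted p = 9.02e-07, 1.46e-04 and 7.64e-04). Liver replicate 3 was the lowest liver for the decoy and the accessory chain and lay between the others for IL1R1.

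Receptors of the interleukin-4 and interleukin-6 groups followed. IL13RA1 and IL4R, which together form a receptor for IL4 and IL13, had 26.2, 36.8 and 16.3 in cerebellum, against 501, 624 and 467 in liver for IL13RA1 and 18.4, 23.5 and 18.6 in cerebellum, against 309, 293 and 230.3 in liver for IL4R. IL13RA2, a decoy for IL13, had -1.05, 5.94 and 2.51 in cerebellum, against 45.1, 104 and 48.6 in liver. Liver values were above cerebellum values on every array, by log2 differences of -3.68, -2.99 and -2.02 (limma, adjusted p = 3.30e-06, 3.21e-06 and 3.85e-04). IL6R, the chain that binds IL6, had 74.6, 44.8 and 50.8 in cerebellum, against 599, 435 and 407 in liver, a log2 difference of -2.76 (limma, adjusted p = 1.76e-05). IL6ST, or gp130, the signalling chain that IL6R shares with the receptors of other cytokines, had 1124, 1184 and 1015 in cerebellum, against 1148, 1055 and 1426 in liver. Its tissues overlapped, and its log2 difference of -0.12 with a standard error of 0.18 did not pass (limma, adjusted p = 0.624). The gap between IL6R and IL6ST was not tested.

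The receptor chains IL10RA, IL2RB, IL7R and IL18RAP, known from lymphocytes and other white blood cells, were higher in liver. IL10RA had 20.4, 19.6 and 18.8 in cerebellum, against 124, 164 and 255 in liver, and IL2RB had 13.9, 13.03 and 11.6 in cerebellum, against 44.4, 62.8 and 96.6 in liver. IL7R had 9.69, 10.2 and 10.5 in cerebellum, against 62.4, 25.1 and 60.9 in liver, and IL18RAP, the accessory chain for IL18, had 5.26, 3.51 and 3.14 in cerebellum, against 53.9, 81.4 and 67.3 in liver. None of the 4 overlapped between tissues, and their log2 differences were -2.39, -1.47, -1.24 and -2.01 (limma, adjusted p from 3.22e-05 to 0.00392). The partner of IL18RAP, IL18R1, lay below 0 on all 3 cerebellum arrays and at 34.8, 0.960 and 14.4 in liver, and did not pass (limma, adjusted p = 0.0648). IL17RC, a chain of the receptor for IL17A and IL17F, was higher in liver at 48.3, 38.2 and 37.7 in cerebellum, against 275, 234 and 113 in liver, whereas IL17RB and IL17RD, receptors of the same family, overlapped between tissues and did not pass (limma, adjusted p = 0.934 and 0.159).

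IL1RAPL1 led the members that were higher in cerebellum. The gene encodes a relative of the interleukin-1 accessory chain that organises synapses and whose loss causes X-linked intellectual disability in humans. Its intensities were 166, 177 and 122 in cerebellum, against 12.9, 12.8 and 12.8 in liver. The livers were nearly equal and low, every cerebellum was above them, and the tissues differed by 2.52 ± 0.18 in log2 (SE, n = 3 per tissue; limma, adjusted p = 8.79e-06). IL20RA, a chain of the receptors for IL19, IL20 and IL24, had 47.1, 93.3 and 46.7 in cerebellum, against 8.29, 9.5 and 15.6 in liver. No liver reached the lowest cerebellum, and the log2 difference was 1.46 (limma, adjusted p = 0.00134). IL11RA, the binding chain for IL11, was at 149, 80.1 and 147 in cerebellum, against 70.8, 85.1 and 46.3 in liver and overlapped between tissues. IL17REL, a relative of the interleukin-17 receptors, was at 88.8, 73.9 and 117 in cerebellum, against 58.5, 33.5 and 56.6 in liver. Their calls were narrow, with log2 differences of 0.74 and 0.74 (limma, adjusted p = 0.0498 and 0.0266). That of IL11RA did not hold with the pseudocount at the 5th or 20th percentile (limma, adjusted p = 0.051 and 0.0518), nor when cerebellum replicate 1 or 3 or liver replicate 1 or 3 was left out (limma, adjusted p from 0.0788 to 0.164). With the replicate number as a block IL11RA was not called either. The call of IL17REL did not hold when cerebellum replicate 1 or 3 or liver replicate 2 was left out (limma, adjusted p from 0.0649 to 0.111).

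Of 7 TNF superfamily ligands, 2 were higher in liver and 0 in cerebellum, with a median of -0.17, or 0.26 after alignment to general genes. The share toward liver was 28.6%, beside 23.9% of all features. TNFSF10, also called TRAIL, an inducer of apoptosis, had 20.9, 40.4 and 22.4 in cerebellum, against 324, 234 and 553 in liver. It differed by -3.06 ± 0.31 in log2 (SE; limma, adjusted p = 6.87e-05), and the livers ranged widely without reaching any cerebellum. TNFSF13B, or BAFF, a survival factor of B cells, had 47.02, 28.2 and 37.1 in cerebellum, against 70.97, 57.5 and 94.6 in liver, a log2 difference of -0.74 (limma, adjusted p = 0.0198). This call did not hold when cerebellum replicate 2 or 3 was left out (limma, adjusted p from 0.0618 to 0.0629), and after alignment to general genes (limma, adjusted p = 0.376). TNFSF14 and TNFSF18, ligands that costimulate T cells, did not pass, at log2 differences of -0.16 and 0.48 (limma, adjusted p = 0.529 and 0.0544).

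Among 17 TNF receptors, 7 were higher in liver and 1 in cerebellum, with a median of -0.99. TNFRSF1A and TNFRSF1B, the receptors of TNF itself, had 41.5, 88.3 and 35.9 in cerebellum, against 545, 566 and 858 in liver for TNFRSF1A and 19.2, 29.9 and 21.4 in cerebellum, against 116, 147 and 176 in liver for TNFRSF1B. TNFRSF10B, a death receptor for TRAIL, had 12.3, 11.8 and 10.5 in cerebellum, against 175, 195 and 314 in liver, and TNFRSF10A, another, had 20.4, 15.6 and 17.1 in cerebellum, against 53.97, 58.8 and 102 in liver. Every liver was above every cerebellum for these receptors, by log2 differences of -3.27, -2.01, -3.07 and -1.32 (limma, adjusted p from 9.81e-06 to 0.00135). TNFRSF10C, a decoy for TRAIL that lacks a death domain, did not pass, at 3.03, -0.945 and -0.428 in cerebellum, against 0.290, 41.7 and 36.8 in liver (limma, adjusted p = 0.0631). TNFRSF11B, or osteoprotegerin, a secreted decoy for TNFSF11, had 21.7, 26.2 and 16.4 in cerebellum, against 41.6, 79.4 and 169 in liver, a log2 difference of -1.42 (limma, adjusted p = 0.0129). TNFRSF11A, the signalling receptor of the same ligand, was at 139.8, 121 and 195 in cerebellum, against 182, 397 and 67.95 in liver and overlapped between tissues (limma, adjusted p = 0.762). TNFRSF14, a receptor on lymphocytes, had a log2 difference of -1.15 (limma, adjusted p = 5.79e-04), which was -0.72 after alignment to general genes.

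The TNF receptor that was higher in cerebellum was TNFRSF21, or death receptor 6, which is known from neurons and oligodendrocytes. Its intensities were 176, 217 and 163 in cerebellum, against 78.6, 46.7 and 129 in liver. No liver reached the lowest cerebellum, and the tissues differed by 1.07 ± 0.29 in log2 (SE, n = 3 per tissue; limma, adjusted p = 0.0157). The call did not hold when cerebellum replicate 2 was left out (limma, adjusted p = 0.0553). TNFRSF12A, the receptor of the cytokine TWEAK and known to rise in injured tissue, was at 8.26, 8.08 and 10.5 in cerebellum, against 25.2, 56.2 and 860.5 in liver. All 3 livers exceeded all 3 cerebella and liver replicate 3 lay far above the other livers. The log2 difference of -2.44 had a standard error of 0.95 and did not pass (limma, adjusted p = 0.0604). Without that array the log2 difference was -1.11 and passed (limma, adjusted p = 0.00816), and with all arrays it passed with the pseudocount at the 5th percentile (limma, adjusted p = 0.0477). TNFRSF12A was also called after alignment to general genes and with the replicate number as a block.

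Of 7 Toll-like receptors, which sense microbial products, 5 were higher in liver and 0 in cerebellum, with a median of -1.34. TLR2 and TLR1, which pair to bind bacterial lipoproteins, had 10.3, 19.3 and 9.82 in cerebellum, against 147, 84.01 and 160.4 in liver for TLR2 and 18.2, 20.1 and 13.3 in cerebellum, against 50.2, 79.00 and 81.2 in liver for TLR1. TLR4, the receptor of lipopolysaccharide, had 89.2, 181 and 137 in cerebellum, against 317, 265 and 514 in liver. TLR3, a sensor of double-stranded RNA, had 22.5, 25.8 and 14.2 in cerebellum, against 83.4, 93.4 and 157 in liver. Livers lay above cerebella on all arrays for these 4 genes, and the log2 differences were -2.27, -1.34, -1.32 and -1.74 (limma, adjusted p from 1.13e-04 to 0.00651). TLR8 and TLR7, neighbouring sensors of single-stranded RNA, parted. TLR8 was at 14.8, 28.5 and 13.97 in cerebellum, against 63.02, 107 and 170.3 in liver (a difference of -1.80 in log2; limma, adjusted p = 0.00153), whereas TLR7 was at 30.8, 31.99 and 29.4 in cerebellum, against 32.7, 17.02 and 40.6 in liver and overlapped (0.05 ± 0.22 in log2, SE; limma, adjusted p = 0.859). TLR10 did not pass (limma, adjusted p = 0.679), with all 6 values under 20. Of the 16 macrophage markers given above, 13 were higher in the same tissue.

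Of the 11 IRF genes and IRF2-binding proteins, 6 were higher in liver and 1 in cerebellum, with a median of -0.60. IRF1, an interferon-induced activator, had 30.2, 19.6 and 29.9 in cerebellum, against 168, 145 and 275 in liver. IRF8, a factor of macrophage and dendritic cell development, had 32.3, 50.6 and 24.2 in cerebellum, against 183, 158 and 309 in liver. IRF9, the DNA-binding part of the complex that interferons activate, had 80.00, 141 and 80.97 in cerebellum, against 295, 351 and 404 in liver. Each was higher in every liver than in any cerebellum, at log2 differences of -2.26, -2.13 and -1.67 (limma, adjusted p = 1.08e-04, 3.18e-04 and 4.68e-04). IRF3, which Toll-like receptor and cytosolic RNA signals activate, had 76.7, 94.7 and 67.1 in cerebellum, against 199.9, 163 and 140.4 in liver. Its log2 difference of -0.94 (limma, adjusted p = 0.00403) lost its call after alignment to general genes (a difference of -0.51 in log2; limma, adjusted p = 0.104). IRF7, the related factor that amplifies interferon production, was at 83.6, 47.2 and 102 in cerebellum, against 51.3, 32.9 and 28.2 in liver, with cerebellum replicate 2 inside the liver range. Its log2 difference was 0.77 toward cerebellum (limma, adjusted p = 0.0407), and the call did not hold when cerebellum replicate 1 or 3 or liver replicate 2 or 3 was left out (limma, adjusted p from 0.103 to 0.153). IRF2 and IRF2BPL did not pass (limma, adjusted p = 0.289 and 0.279).

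All 3 STAT genes among the members were higher in liver. STAT6, which signals from IL4R, had 28.1, 27.4 and 27.1 in cerebellum, against 367, 368 and 289.7 in liver. STAT3, which signals from IL6ST, had 459, 601 and 500.0 in cerebellum, against 1903, 1847 and 1594 in liver. Neither gene overlapped between the tissues, and the log2 differences were -3.01 and -1.75 with standard errors of 0.17 and 0.18 (limma, adjusted p = 2.25e-06 and 6.68e-05). STAT4, which signals from the IL-12 receptor in lymphocytes, had 16.8, 17.5 and 15.4 in cerebellum, against 42.2, 23.7 and 55.4 in liver. The difference was narrower, at -0.74 (limma, adjusted p = 0.025), and the call did not hold when cerebellum replicate 1, 2 or 3 or liver replicate 1 or 3 was left out (limma, adjusted p from 0.0529 to 0.0813), and after alignment to general genes (limma, adjusted p = 0.353).

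The SOCS genes went both ways, with 2 of 6 higher in cerebellum and 2 in liver. That is 33.3% each way, beside 26.7% and 23.9% of all features. SOCS5, a member with a long amino-terminal region, had 1573, 1192 and 1646 in cerebellum, against 264, 234 and 259 in liver. Every cerebellum was several times above every liver, and the tissues differed by 2.45 ± 0.18 in log2 (SE, n = 3 per tissue; limma, adjusted p = 1.09e-05). SOCS4, the member most like SOCS5, had 114, 161 and 125 in cerebellum, against 48.8, 78.2 and 97.2 in liver, a log2 difference of 0.74 (limma, adjusted p = 0.0316), and its call did not hold when cerebellum replicate 2 or 3 or liver replicate 1 or 2 was left out (limma, adjusted p from 0.0637 to 0.0972). SOCS1, an inhibitor of JAK kinases, had 42.5, 33.9 and 49.2 in cerebellum, against 86.1, 77.1 and 87.3 in liver, and SOCS2, the inhibitor known from growth hormone signalling and named after its values were seen, had 36.4, 66.7 and 25.7 in cerebellum, against 56.7, 212 and 157 in liver. Their log2 differences toward liver were -0.78 and -1.32 (limma, adjusted p = 0.00536 and 0.0298). After alignment to general genes neither passed (limma, adjusted p = 0.259 and 0.0598), and the call of SOCS2 also did not hold when cerebellum replicate 1 or 3 or liver replicate 2 or 3 was left out (limma, adjusted p from 0.0791 to 0.108). SOCS3, which restrains signalling through IL6ST, had 98.2, 61.9 and 126 in cerebellum, against 142, 169.6 and 108 in liver and overlapped. It did not pass (a difference of -0.50 in log2; limma, adjusted p = 0.139), nor did SOCS6 (limma, adjusted p = 0.833).

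Both genes were measured in 30 of 66 listed ligand and receptor pairs, which share genes, with 28 ligands and 25 receptors among them. As 50.6% of all features were called in either direction, the counts of pairs are given as a description only. In 8 pairs both genes were higher in liver, namely CXCL12 with CXCR4, CCL5 with CCR1, IL1A and IL1RN with IL1R1, IL7 with IL7R, IL10 with IL10RA, and TNFSF10 with TNFRSF10A and TNFRSF10B. In 10 pairs the receptor was higher in liver while the ligand did not pass, among them IL6 with IL6R, IL4 with IL4R, IL13 with IL13RA1, TNFSF14 with TNFRSF14 and IL34 with CSF1R. In 4 pairs only the ligand was higher in liver, namely CXCL9 and CXCL10 with CXCR3, CCL21 with CCR7 and IL18 with IL18R1. The pair of CCL22 and CCR4 was the only measured one with calls in opposite directions, at 0.67 and -0.95. In 5 pairs neither gene passed, among them CXCL13 with CXCR5 and TNFSF11 with TNFRSF11A. IL4 had 10.6, 10.5 and 21.3 in cerebellum, against 12.8, 19.7 and 22.4 in liver, and IL13 had 16.8, 18.5 and 19.6 in cerebellum, against 30.04, 34.8 and 20.7 in liver. These ligand values were low in both tissues beside receptor differences of -2.99 for IL4R and -3.68 for IL13RA1. The difference between a ligand and its receptor was not tested.

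**Figure D3:**
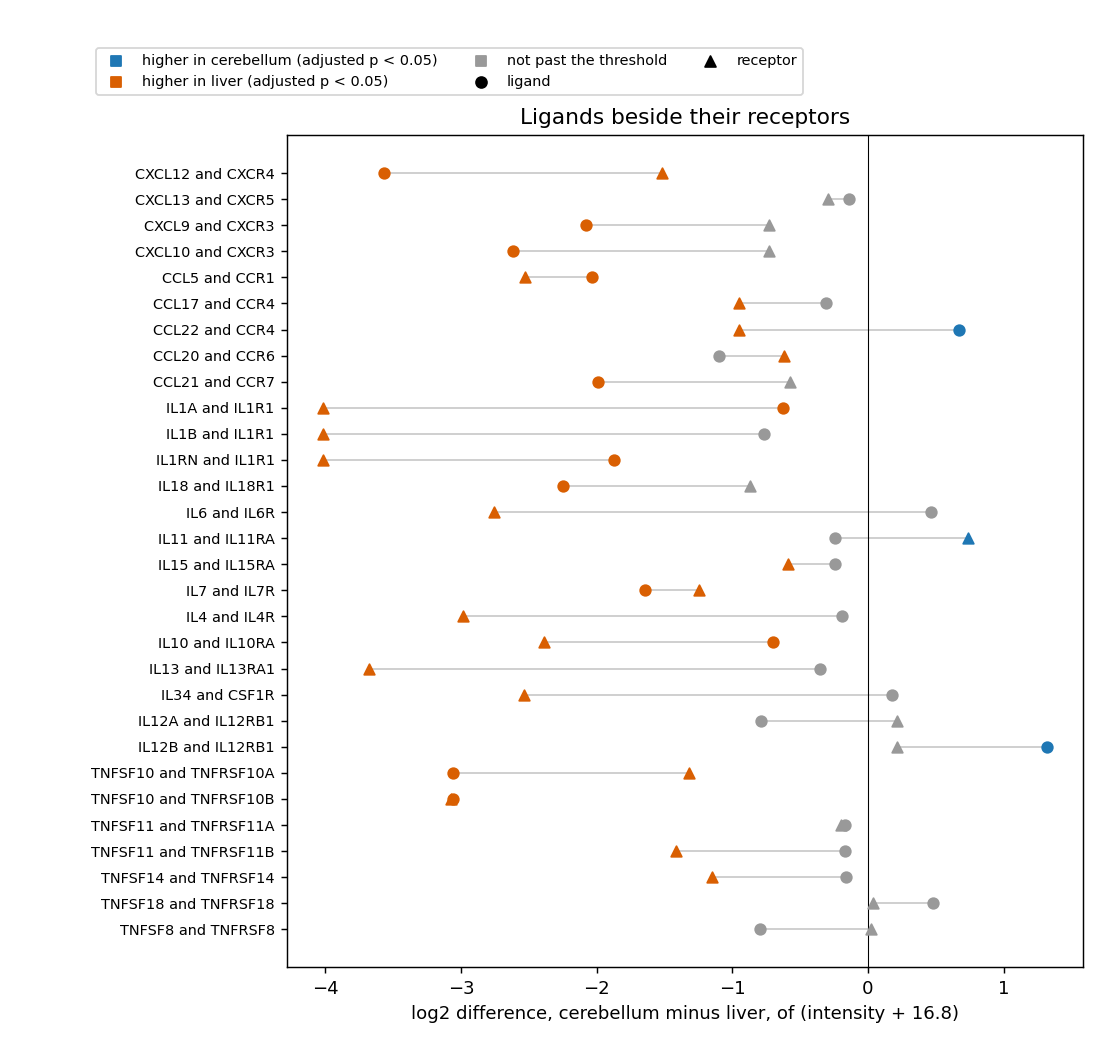
Log2 difference, cerebellum minus liver, of the ligand (circle) and the receptor (triangle) of the 30 measured pairs, joined by a line. Blue marks genes higher in cerebellum, orange genes higher in liver and grey genes not past the threshold. Of the receptors, IL11RA is the one in blue, and CCL22 and IL12B are the ligands in blue.

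Partner genes of the same pathways, from lists of genes outside the families, gave 63 of 104 higher in liver and 7 in cerebellum. Over all features the shares were 23.9% and 26.7%. The pooled count includes the 9 acute phase genes below, all higher in liver, whose direction is built in. Of 20 JAK kinases and other cytokine receptor partners, 12 were higher in liver, led by the growth hormone receptor GHR at a log2 difference of -4.49, and 2 in cerebellum, led by PIAS3, an inhibitor of STAT3, at 0.77 (limma, adjusted p = 4.08e-07 and 0.0112). JAK1, a kinase that many of these receptors use, was at 610.0, 864 and 726 in cerebellum, against 768, 701 and 925 in liver and did not pass (limma, adjusted p = 0.634). Of 12 Toll-like receptor partners, 8 were higher in liver and 0 in cerebellum. CD14, the coreceptor of TLR4, led them at -4.20, and MYD88, the adaptor that most Toll-like receptors share, had 34.8, 55.02 and 38.2 in cerebellum, against 282, 326 and 280.2 in liver (limma, adjusted p = 8.53e-05 and 1.39e-05). CD14 and CSF1R are also among the macrophage markers, CSF3R is among those of neutrophils and red cells, and FGB is among those of hepatocytes.

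Of 19 NF-kappaB genes, 10 were higher in liver and 3 in cerebellum. NFKB2 led toward liver at -2.72 (limma, adjusted p = 0.0186), with 27.7, 17.4 and 21.8 in cerebellum, against 109, 96.8 and 1159 in liver. Liver replicate 3 was about an order of magnitude above the other livers, and without it the log2 difference was -1.62 (limma, adjusted p = 0.00029). The call of NFKB2 did not hold when cerebellum replicate 2 or 3 was left out (limma, adjusted p from 0.0514 to 0.0591). REL, a subunit of NF-kappaB known from lymphocytes, led toward cerebellum at 243, 177 and 254 in cerebellum, against 93.9, 109 and 119.7 in liver (a difference of 0.95 in log2; limma, adjusted p = 0.00357). Of 18 TNF receptor adaptors and related genes, 7 were higher in liver and 0 in cerebellum, and CASP8, the caspase that death receptors activate, had 8.86, 12.6 and 5.67 in cerebellum, against 149, 146 and 218 in liver (a difference of -2.85 in log2; limma, adjusted p = 8.98e-06). Its adaptors FADD and TRADD did not pass (limma, adjusted p = 0.199 and 0.855). Of 20 interferon-induced genes, 13 were higher in liver and 1 in cerebellum, with a median of -1.54. MX1, an antiviral GTPase, was at 11.6, 52.1 and 15.96 in cerebellum, against 286, 255 and 474 in liver, and ISG20, an exonuclease, was at 213, 90.8 and 208 in cerebellum, against 38.9, 10.9 and 48.9 in liver (log2 differences -3.10 and 1.93, limma adjusted p = 1.51e-04 and 0.00356).

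All 9 measured acute phase genes were higher in liver, led by the fibrinogen chain FGB at -7.23 (limma, adjusted p = 1.85e-07), a list whose direction is built in because hepatocytes make these proteins. Of 6 atypical chemokine receptors and further chemokines, 4 were higher in liver and 1 in cerebellum. RARRES2, or chemerin, led toward liver at -4.27 (limma, adjusted p = 4.97e-07). ACKR1, a chemokine-binding receptor that does not signal through G proteins and is known from red cells, venules and Purkinje neurons, was at 319, 273 and 276 in cerebellum and below 0 on all 3 livers, so no fold is given (limma, adjusted p = 3.27e-07).

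**Figure D4:**
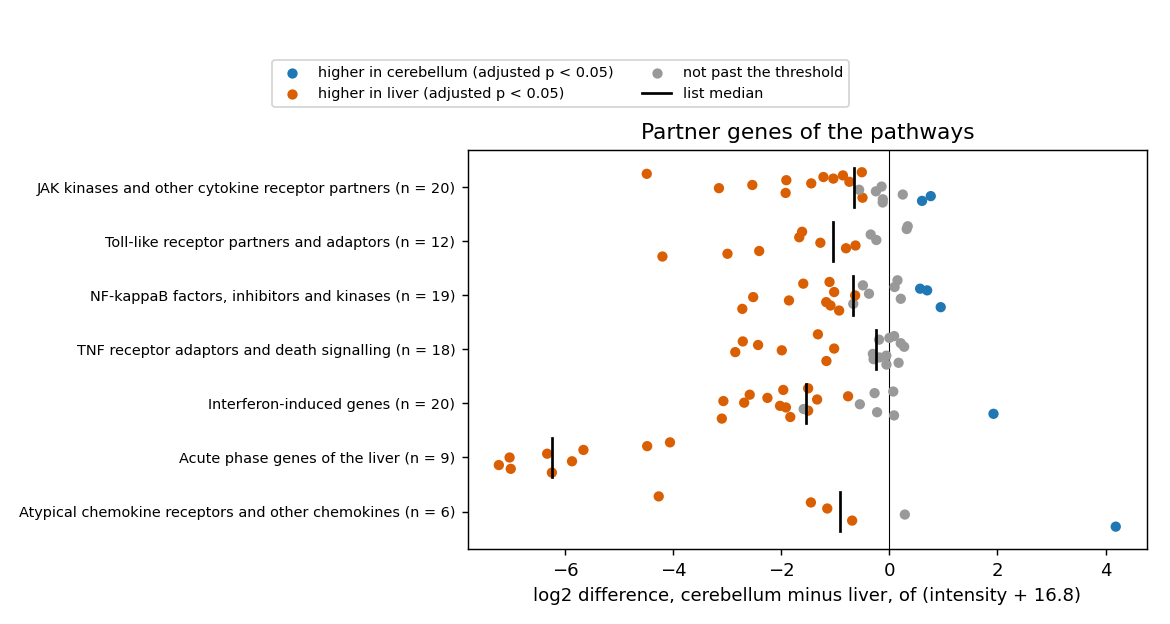
Log2 difference, cerebellum minus liver, of 7 lists of partner genes, 104 genes in all. Blue points are higher in cerebellum, orange points higher in liver, grey points did not pass, and black lines are list medians. The blue point farthest right is ACKR1, whose liver values lie below 0, so that its position depends on the pseudocount.

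Members that lie side by side in the genome did not always move alike. Since 50.6% of all features were called in either direction, counts among neighbours are given as a description only. All 143 symbols were found in the RefSeq gene table of the chimpanzee assembly NHGRI_mPanTro3-v2.0_pri, where 53 fell into 20 runs with at most 3 protein-coding genes between neighbours. The run of IL18RAP, IL18R1, IL1RL2, IL1R1 and IL1R2 held 3 genes higher in liver and 2 not past the threshold. IL1RL2, a receptor of the interleukin-36 group and named for its place in this run, was at 33.2, 43.4 and 46.5 in cerebellum, against 69.5, 28.97 and 40.7 in liver, beside the differences of -4.01 and -3.06 of its neighbours IL1R1 and IL1R2. Of the run of IL1RN, IL1F10, IL36RN, IL36G, IL1B and IL1A, 2 of 6 were higher in liver. The run of CCL22, CX3CL1 and CCL17 held 1 gene higher in cerebellum and 2 that did not pass, and in that of CCL18, CCL23, CCL16 and CCL5, 3 of 4 were higher in liver. CXCL9 and CXCL10 lay next to each other and both were higher in liver.

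Among the livers, replicate 3 was the least like the others. Over the 143 members, the log2 values of liver replicate 3 correlated with those of liver replicates 1 and 2 at Pearson's r of 0.80 and 0.85, beside 0.92 between replicates 1 and 2 and 0.91 to 0.97 among cerebella. Over all features the same livers gave 0.91, 0.93 and 0.95. These correlations are across genes, which are not independent replicates. Set against the mean of the other livers, 11 members were over 1 higher on the log2 scale in liver replicate 3 and 7 over 1 lower, which is 7.69% and 4.90% of members beside 3.36% and 2.75% of all features. In cerebellum replicates 1 and 3 no member was shifted by over 1, beside 0.244% to 0.72% of all features per direction. In cerebellum replicate 2 a shift of over 1 was seen for 2 members in each direction. That is 1.4% each way, beside 1.29% higher and 1.2% lower of all features. Liver replicate 1 had 4 members over 1 higher and 9 over 1 lower, or 2.8% and 6.29%, beside 2.33% and 1.84% of all features. Liver replicate 2 had 5 in each direction, or 3.5% each way, beside 0.812% and 1.36% of all features. The counts of the 3 livers are not separate, because an outlying value on 1 array also shifts the other 2 the opposite way. TNFRSF12A was shifted by 3.99 in liver replicate 3 and by -2.59 and -1.40 in liver replicates 1 and 2.

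The 11 members that were higher in liver replicate 3, picked by this shift, were TNFRSF12A, CXCL6, TNFRSF9, IL18, CCL20, CCL2, CXCL10, TNFRSF11B, IL1B, IRF4 and CCL5, with shifts of 3.99 for TNFRSF12A, 3.41 for CXCL6 and 1.03 for CCL5. CCL20, the ligand of CCR6, had 9.98, 25.6 and 154 in the livers, and TNFRSF9, a receptor of activated T cells, had -0.760, -5.60 and 75.2. In cerebellum CCL20 was at 11.2, 11.1 and 8.57 and TNFRSF9 at -10.6, 4.06 and 5.83, so the tissues overlapped in both and neither passed (limma, adjusted p = 0.147 and 0.454). The 7 members that were lower there were TNFRSF11A, IL17RB, IL1R2, IL1RAP, CCL28, IL17RC and IL1RN. Replicate 3 lay below both other livers in each of these 7. The calls of CCL2, CXCL10, CCL5, TNFRSF11B, IL18, IL1R2, IL1RAP, IL1RN, IL17RC and CCL28 held without liver replicate 3 (limma, adjusted p from 9.92e-06 for IL1R2 to 0.0315 for IL18), and the log2 difference of CCL2 was then -1.53. The call of CCL28 did not hold when cerebellum replicate 1, 2 or 3 or liver replicate 1 or 2 was left out (limma, adjusted p from 0.0533 to 0.117), nor after alignment to general genes.

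Other genes shifted on that array as well. NFKB2 was at 109, 96.8 and 1159 in the livers, and RELB, another subunit of NF-kappaB named after its values were seen, at 20.1, 35.8 and 122.6. Against the mean of the other livers, the median shift in liver replicate 3 was 0.23 over the 19 NF-kappaB genes. For markers of fibroblasts and stellate cells it was 1.19. It was 0.74 for those of macrophages, 0.46 for those of lymphocytes and 0.15 for those of endothelium. Markers of neutrophils and red cells had a median shift of -0.24 and those of hepatocytes one of -0.47. HAMP, the iron hormone hepcidin that IL6 is known to induce, was at 2903, 2426 and 315, lowest in the third liver. The summed intensity of macrophage markers was 11099 there, against 6328 and 6295 in the other livers, and that of fibroblast markers was 4669 against 2273 and 1856. Their part in the shifts of the members was not tested.

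**Figure D5:**
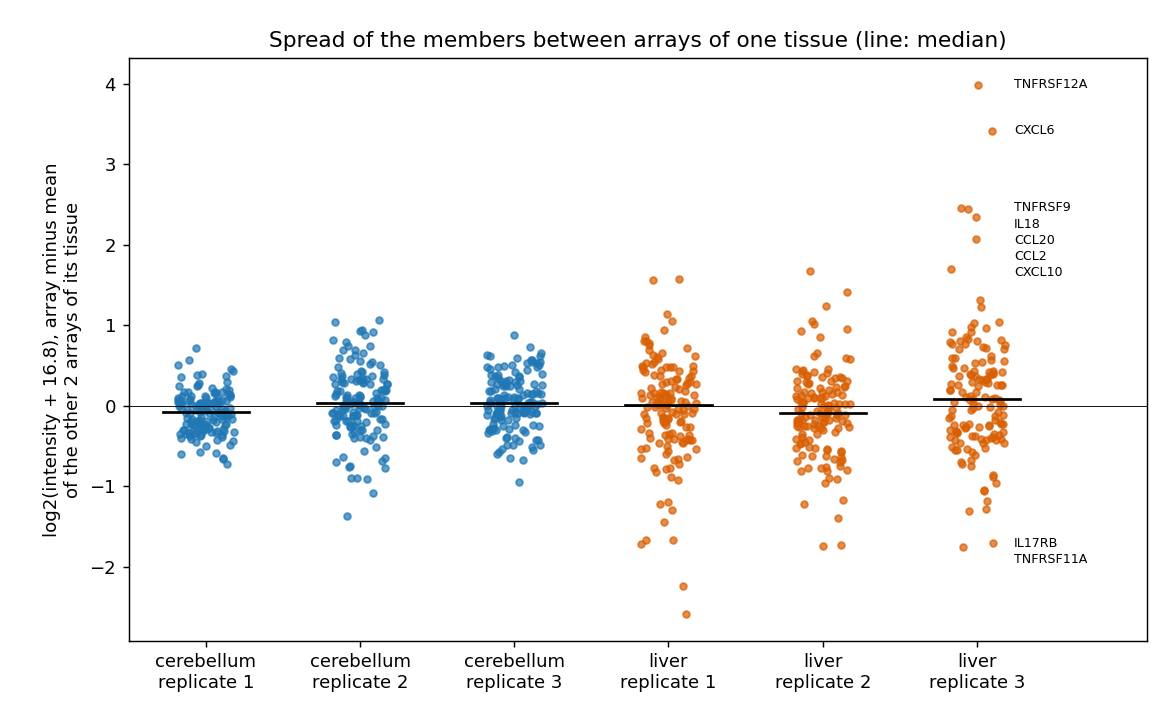
Log2(intensity + 16.8) of each of the 143 genes on an array minus the mean of the other 2 arrays of its tissue, for the 3 cerebellum arrays (blue) and the 3 liver arrays (orange). Black lines are medians, and genes shifted by over 1.5 in liver replicate 3 are named beside their height. The widest spread is in the livers, with TNFRSF12A and CXCL6 over 3 in liver replicate 3.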

How the data were processed

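The authors deposited 1 table of intensities on a linear scale for 6 arrays, 3 of cerebellum and 3 of liver, summarised to 15143 features. TRIzol was used for total RNA, which was depleted of ribosomal RNA and labelled as biotinylated sense-strand DNA, per the labels' protocols. GCOS is named, without a version, in the submitters' processing notes. Not given in the sources used here are the background correction, the summary of probes and any removal of probes that mismatch chimpanzee sequence. The sorted values were identical on all arrays, so the deposited intensities were quantile normalized, and 93 values per array lay below 0. Quantile normalization sets an equal distribution for both tissues, so a change of most genes in one direction would not be seen. The number of arrays limits the precision.

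Values below 0 were set to 0, a pseudocount of 16.8 (the 10th percentile of all values) was added, and log2 values were fitted over all deposited features with limma 3.58.1 in R 4.3.3 (lmFit and eBayes), without a block, with Benjamini-Hochberg adjustment over all features. A fold change on this scale understates the change of dim genes. The fit was tested on simulated data. Gene symbols came from the platform annotation, where 12685 features had 1 symbol, 1780 several and 678 none.

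The members, the gene lists and the tests were chosen with earlier results of these data known. In each family the text names up to 4 called members per direction with the largest difference and no overlap, and up to 2 brightest members that were not called. It also names measured ligand and receptor pairs and the largest called gene of each partner list per direction. The members CCL18, CCL2, CX3CL1, IL13RA2, IL17C, IL17F, IL17RC, IL17RD, IL18RAP, IL1RAP, IL1RL2, IL2RB, IRF4, IRF7, SOCS2, TLR4, TNFRSF10C and TNFRSF9 and those given only for their array shift or their place in the genome fall outside this rule, as do the partner genes JAK1, MYD88, FADD, TRADD, RELB and HAMP and the markers named singly. They were chosen after their values were seen.

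Same-numbered samples had the same sex and age in both tissues. Their deviations from the tissue means correlated at 0.11, 0.16 and -0.14. With 3 arrays per tissue these correlations cannot show whether both tissues came from the same animals. As the labels do not say so either, the reported fit was made without pairs, and a fit with the replicate number as a block is an alternative. The alternatives were other pseudocounts, leaving out dim features, alignment on general genes, a replicate block, trend and robust settings, and each array left out in turn. A planned search of promoters for motifs was not run.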

Additional observations from a re-analysis of the deposited data

How the results depend on the processing

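None of the 71 called members changed direction with another pseudocount or with 1 array left out. The other alternatives could not turn one: the block and the trend and robust settings leave the differences as they are, the alignment adds 0.43 where the smallest called difference toward liver is -0.59, and leaving out dim features, which keeps 49 of the 71, changes no difference. The members higher in cerebellum numbered 12 in the reported fit, beside 26.7% of all features. They numbered 6 with dim features left out, which leaves 66 members, beside 34.5% of the features kept. With arrays aligned on general genes they numbered 25, beside 39.4% of all features. With 1 array left out they numbered between 6 and 14, beside 21.7% to 26.2% of all features. Those higher in liver numbered 59, and between 49 and 61 with 1 array left out, beside 18.7% to 24.5% of all features. The median log2 difference of the members was -0.57, and it was -0.64 with a pseudocount at the 5th percentile (10.2), -0.45 at the 20th percentile (30.3), -1.74 with dim features left out (0.05 over all features), -0.14 with the alignment, and between -0.59 and -0.49 with 1 array left out. A gene dim in one tissue passes that filter only through the other, so the larger median is built in. Of the partner genes, 7 were higher in cerebellum, 11 with the alignment and between 5 and 6 with 1 array left out, and 63 were higher in liver, between 54 and 61 with 1 array left out. With the replicate number as a block, the replicate block fit gave 12 members higher in cerebellum and 65 in liver, beside 26.4% and 23.4% of all features. It lost the calls of IL10, IL11RA and IL15RA (limma, adjusted p from 0.062 to 0.0781) and called CCL23, CX3CL1, CXCL6, CXCR3, IL12A, IL18R1, IL25, IRF4 and TNFRSF12A (limma, adjusted p from 0.0117 to 0.0471). The labels give same-numbered samples the same sex and age without saying that they are the same animal. Cerebellum replicates 1 and 2 correlated best with the liver of their own number and cerebellum replicate 3 best with liver replicate 1, at 0.24.

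By its construction the alignment turns the sign of every difference between -0.43 and 0, which 25 members have, all uncalled. Among those named by the rule or in a pair the aligned values were 0.12 for CCL17, 0.29 for CXCL13, 0.13 for CXCR5, 0.0728 for IL13, 0.19 for IL11, 0.19 for IL15, 0.24 for IL4, 0.31 for IL6ST, 0.37 for IL17RB, 0.26 for TNFSF11, 0.27 for TNFSF14, 0.23 for TNFRSF11A and 0.0605 for IRF2. With 1 array left out, uncalled genes of the same set changed sign within -0.13 to 0.43 for IL12RB1, -0.63 to 0.42 for IL17RB, -0.0687 to 0.37 for IL34, -0.21 to 0.0064 for IL6ST, -0.0706 to 0.24 for SOCS6, -0.0373 to 0.22 for TLR10, -0.17 to 0.22 for TLR7, -0.79 to 0.36 for TNFRSF11A, -0.15 to 0.18 for TNFRSF18 and -0.15 to 0.22 for TNFRSF8. The cause of these changes with 1 array left out was not tested. Differences of the 77 members under the array median in both tissues are limited by signal over background.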
